A study of Sus scrofa with 23 samples.

Results

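S100B, SOX10, CDH19, NCAM1 and UCHL1 are genes of peripheral nerve and of the Schwann cells that wrap its axons, and they were followed here across grades of coronary atherosclerosis in pigs with and without diabetes. They come from a list of 8 names chosen for their known place in nerve, with earlier results of these data known. Of the 8, 5 have a row among the 35228 gene names of the tables. PMP22, NGFR and TH were not analysed here. S100B has no row under its own symbol and is the row LOC100623510, which is that gene's identifier in the pig annotation.

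RNA had been sequenced from 3-mm pieces of coronary artery of Yorkshire pigs, all made hypercholesterolemic, and each piece had been graded by histology as mild, moderate or severe atherosclerosis. Diabetic pigs gave 6 moderate and 4 severe segments, and the others gave 4 mild, 4 moderate and 5 severe segments. No mild segments of diabetic pigs were among them, and the labels give neither the way diabetes or hypercholesterolemia was brought about nor the age of the animals. The question the groups pose is how gene expression in the diseased wall differs with grade and with diabetes. Which segments came from 1 animal is not in the labels, so the p-values measure the spread between segments, some of which may share a pig. Severe non-diabetic replicate 5 is placed by its title, although its characteristics give moderate grade and diabetes.

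Coronary arteries carry sympathetic, parasympathetic and sensory fibres in the adventitia, the outer coat that borders fat and heart muscle. Schwann cells come in a myelinating form, which builds the sheath of thick axons, and a non-myelinating form, which bundles thin ones, and both depend on the transcription factor SOX10. The cell bodies of most of these neurons lie in ganglia outside the vessel wall, so a segment holds Schwann cells whole but mainly the axons of neurons. In RNA from whole segments, fewer cells of a type and less RNA per cell cannot be told apart.

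Values are the authors' mean normalized counts per group, in which each library's counts had been scaled to a common depth, together with the fold changes and adjusted p-values that the authors obtained with DESeq2. Approximate library totals read from the low values were 6.72 to 15.0 M reads, with ranges of 10.3 to 13.3 M in moderate and 11.2 to 15.0 M in severe diabetic segments, and of 8.32 to 13.1, 6.72 to 14.3 and 8.11 to 12.6 M in mild, moderate and severe segments without diabetes. No value of a single library was used here, so the spread between segments is given as the standard error (SE) of the authors' model, and the number of segments that show a direction cannot be given. An adjusted p under 0.05 counts as a change.

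MBP, a protein of the myelin sheath and another marker of the Schwann cell, averaged 1102 and 1084 normalized counts in moderate and severe diabetic segments, and 358, 712 and 727 in mild, moderate and severe segments without diabetes, in the authors' deposited table. PRX, or periaxin, a protein of myelinating Schwann cells, averaged 96.9 and 91.4 with diabetes and 183, 230.1 and 154 without it. Of the sympathetic axon markers, PRPH, a filament of peripheral neurons, averaged 12.1 and 6.97 with diabetes and 12.5, 28.7 and 17.9 without it. DBH, the enzyme that makes noradrenaline, was near the limit of detection, with means of 1.06 and 0.722 with diabetes and 1.26, 1.45 and 0.357 without it, where 3 counts in a group would give a mean of 0.478 to 0.822.

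S100B encodes a calcium-binding protein of Schwann cells that adipocytes, chondrocytes and melanocytes also make. Its row spans bases 189784 to 197338 of an unplaced scaffold of Sscrofa11.1. The authors' mean was 266 in moderate and 313 in severe segments of diabetic pigs, and 1115, 778 and 613 in mild, moderate and severe segments of pigs without diabetes. Every diabetic mean lay below every non-diabetic mean.

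SOX10, the transcription factor that sets Schwann cell identity, lies on chromosome 5 (chr5:9890439-9901746). It averaged 21.6 and 16.8 in moderate and severe diabetic segments, and 32.0, 18.9 and 8.23 in mild, moderate and severe segments without diabetes. Here the diabetic means fell inside the range of the others.

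CDH19, a cadherin of Schwann cells and their precursors, lies on chromosome 1 (chr1:155669361-155758550). Its means were 146 and 174 in moderate and severe diabetic segments, and 327, 258 and 143 in mild, moderate and severe segments without diabetes. The lowest mean was that of severe segments without diabetes, and all but the mild and moderate means without diabetes lay close together.

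NCAM1 is an adhesion molecule of axons and non-myelinating Schwann cells, also found on natural killer cells and in muscle, and lies on chromosome 9 (chr9:40628602-40960605). It averaged 698 and 712 in moderate and severe diabetic segments, and 1622, 1465 and 1225 in mild, moderate and severe segments without diabetes. The 5 means took the same order as those of S100B.

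UCHL1, a ubiquitin hydrolase that is among the most abundant proteins of neurons, lies on chromosome 8 (chr8:32353766-32367288). It averaged 77.0 and 90.4 in moderate and severe diabetic segments, and 111, 199 and 173 in mild, moderate and severe segments without diabetes. It was the one gene of the 5 whose non-diabetic mean was lowest in mild segments.

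**Figure D1:**
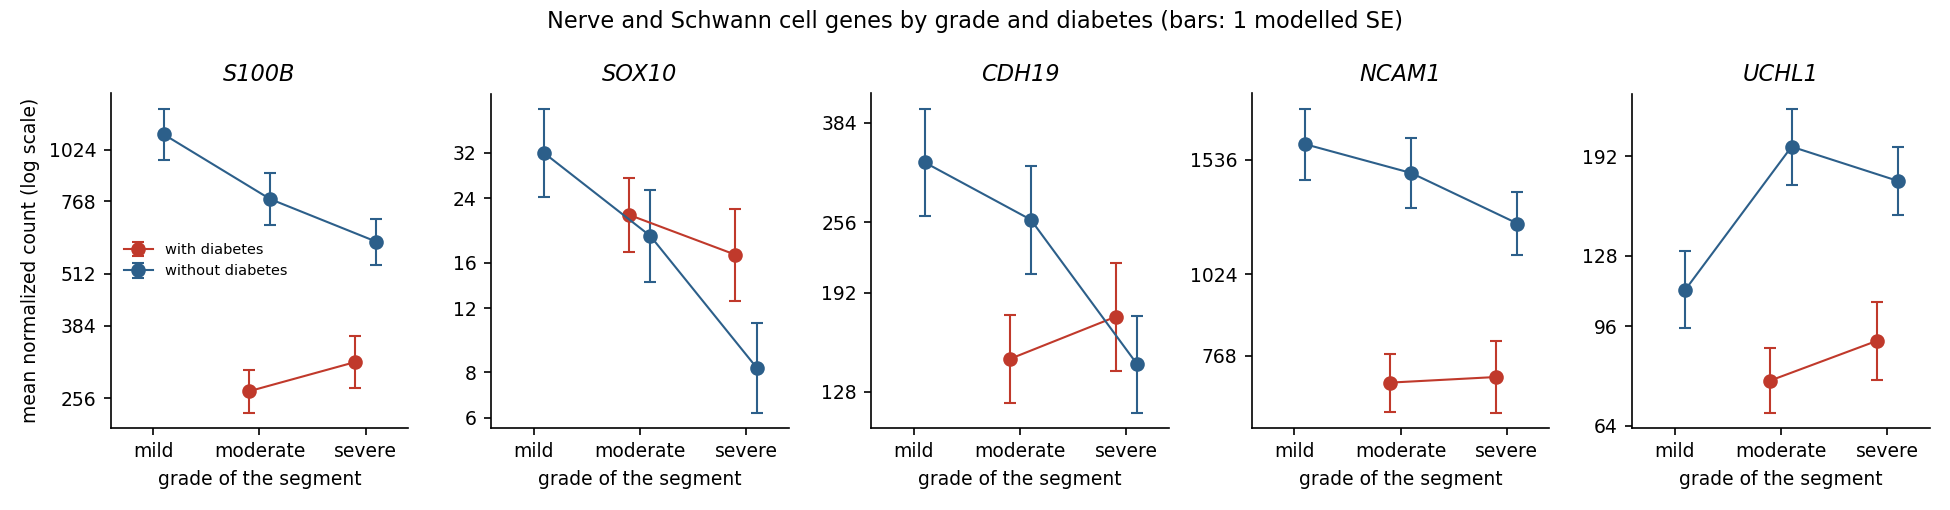
Authors' mean normalized count (log axis) of each gene against the grade of the segment, with diabetes in red and without it in blue; bars are 1 SE of the authors' model. S100B, NCAM1 and UCHL1 have both diabetic means below the non-diabetic means of the same grade (for S100B 266 and 313, against 778 and 613), whereas SOX10 has both above (21.6 and 16.8, against 18.9 and 8.23) and the lines of CDH19 cross.

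Modelled variation between libraries was larger for these genes than for most. It came to 28.5% of the mean for S100B, 53.0% for SOX10, 43.5% for CDH19, 24.9% for NCAM1 and 30.0% for UCHL1. The median over the 12194 genes that averaged 50 or more in each of the groups was 19.6%, and 95% of them lay under 40.0%. SOX10 and CDH19 were thus the least precisely measured, and SOX10 is also the gene with the fewest reads.

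S100B, NCAM1 and UCHL1 were lower with diabetes at both grades, while SOX10 and CDH19 did not pass at either. In moderate segments 3 of the 5 genes were lower with diabetes and 0 were higher, beside 8.46% of all genes tested that were lower and 8.20% that were higher. In severe segments the same 3 were lower and 0 were higher, beside 4.92% and 5.75% of all genes. The 5 genes' median log2 fold change was -1.07 in moderate and -0.78 in severe segments, and that of all genes was -0.01 and 0.03. Because the list was chosen with earlier results of these data known, such counts and medians, here and by grade, describe the 5 genes only.

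The largest difference was that of S100B in moderate segments, where the mean with diabetes was 34.2% of the mean without it. The authors' deposited table gives it a log2 fold change of -1.54 ± 0.27 (SE; DESeq2 adjusted p = 1.16e-06). In severe segments the diabetic mean of S100B was 51.1% of the other, at -0.97 ± 0.28 in the authors' deposited table (DESeq2 adjusted p = 0.0112). UCHL1 followed in size, with a diabetic mean of 38.6% of the non-diabetic one in moderate segments, and the authors' deposited table lists -1.38 ± 0.29 (DESeq2 adjusted p = 9.86e-05). In severe segments UCHL1 was at 52.1%, with -0.94 ± 0.30 in the authors' deposited table (DESeq2 adjusted p = 0.0269).

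NCAM1 with diabetes stood at 47.6% of its level without diabetes in moderate segments, with a log2 fold change of -1.07 ± 0.23 in the authors' deposited table (DESeq2 adjusted p = 0.000171). In severe segments it stood at 58.1%, with -0.78 ± 0.24 in the authors' deposited table (DESeq2 adjusted p = 0.0203).

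For SOX10 the diabetes contrast had the opposite sign and did not pass. Moderate segments gave 0.18 ± 0.54 and severe segments 1.01 ± 0.59 on the log2 scale in the authors' deposited table (DESeq2 adjusted p = 0.874 and 0.286). The 95% interval in severe segments ran from -0.14 to 2.16. CDH19 was at -0.82 ± 0.41 in moderate and 0.28 ± 0.43 in severe segments in the authors' deposited table (DESeq2 adjusted p = 0.167 and 0.747). Its interval in moderate segments, -1.62 to -0.01, barely left out 0 before adjustment.

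Whether the diabetes contrast depends on grade was tested here from the deposited fold changes and SEs, with a two-sided Wald test adjusted over 17493 genes. None of the 5 genes passed, beside 0.0114% of all genes, and 0 of the 5 had an unadjusted p under 0.05, against 706 of all genes. The largest was CDH19, whose contrast was 1.10 ± 0.59 higher on the log2 scale in severe than in moderate segments (two-sided Wald test over all genes, Benjamini-Hochberg adjusted p = 0.999). S100B differed by 0.58 ± 0.39, SOX10 by 0.83 ± 0.80, UCHL1 by 0.44 ± 0.42 and NCAM1 by 0.29 ± 0.34.

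**Figure D2:**
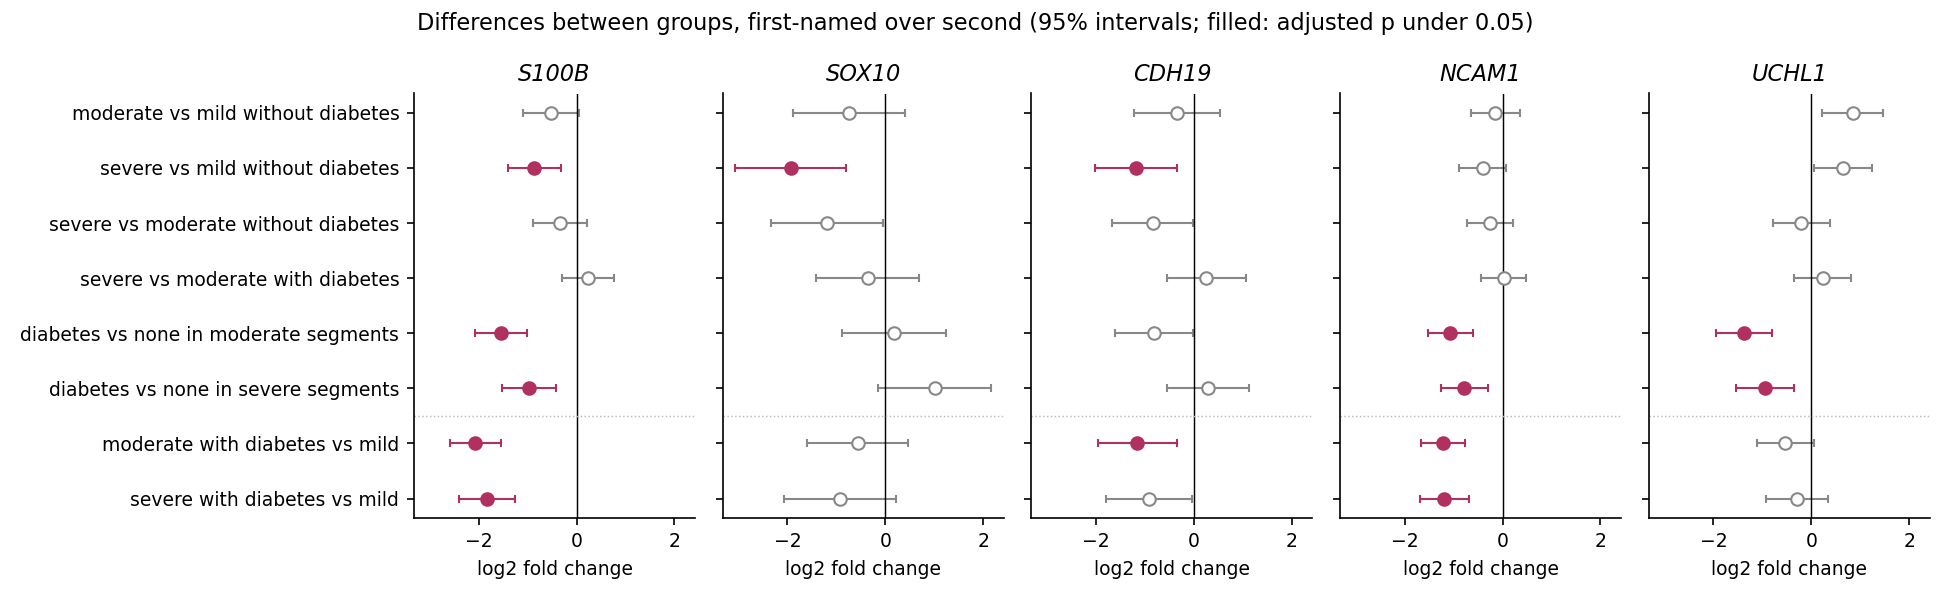
Log2 fold change (x axis) of each gene in the 6 deposited comparisons and, under the dotted line, in 2 comparisons with mild segments computed here; bars are 95% intervals and filled points have an adjusted p under 0.05. S100B, NCAM1 and UCHL1 are filled and below 0 in both diabetes comparisons, and S100B, SOX10 and CDH19 are filled and below 0 for severe against mild segments.

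Across grades without diabetes, SOX10, CDH19 and S100B were lower in severe than in mild segments. In severe against mild segments, 3 of the 5 genes were lower and 0 higher, beside 4.80% of all genes that were lower and 7.19% that were higher. The median of the 5 was -0.86, against -0.03 for all genes. SOX10 fell most, to 8.23 in severe against 32.0 in mild segments, or 3.82-fold lower, at -1.93 ± 0.58 in the authors' deposited table (DESeq2 adjusted p = 0.0113). S100B was at 55.0% of its mild mean, with -0.86 ± 0.28 in the authors' deposited table (DESeq2 adjusted p = 0.0222).

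CDH19 was at 43.9% of its mild mean, with -1.19 ± 0.43 in the authors' deposited table (DESeq2 adjusted p = 0.0460). That call was marginal, since the adjusted p was 0.0678 when every gene with a p was counted and 0.0530 when fold changes were centred on the median gene. NCAM1 did not pass, at -0.41 ± 0.24 in the authors' deposited table (DESeq2 adjusted p = 0.309). UCHL1 pointed the other way, at 0.64 ± 0.30 in the authors' deposited table (DESeq2 adjusted p = 0.162).

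No gene of the 5 passed for moderate against mild segments without diabetes, beside 4.63% of all genes by DESeq2 in either direction, and 1 had an unadjusted p under 0.05. That gene was UCHL1, with 199 in moderate and 111 in mild segments and 0.85 ± 0.32 in the authors' deposited table (DESeq2 adjusted p = 0.111). The others ran from -0.75 ± 0.58 for SOX10 to -0.15 ± 0.26 for NCAM1, with S100B at -0.52 ± 0.29 and CDH19 at -0.34 ± 0.45, in the authors' deposited table.

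Between severe and moderate segments no gene of the 5 passed. Without diabetes 0 of the 5 passed by DESeq2, beside 0.0203% of all genes, and 2 had an unadjusted p under 0.05. These were SOX10 at -1.19 ± 0.59 and CDH19 at -0.85 ± 0.43 in the authors' deposited table. With diabetes 0 passed by DESeq2, beside 0.00332% of all genes, and 0 had an unadjusted p under 0.05. All 5 then lay between -0.36 ± 0.54 for SOX10 and 0.25 ± 0.41 for CDH19 in the authors' deposited table.

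Diabetic segments were also set against mild segments, a comparison computed here in which grade and diabetes differ together. In moderate diabetic against mild segments 3 of the 5 were lower, beside 21.4% of all genes, and in severe diabetic against mild segments 2 were lower, beside 16.1%. S100B was 4.19-fold lower in moderate diabetic segments, at -2.07 ± 0.27 (two-sided Wald test, Benjamini-Hochberg adjusted p = 5.78e-13), and 3.56-fold lower in severe ones, at -1.83 ± 0.29 (adjusted p = 1.32e-08). NCAM1 was at -1.22 ± 0.23 and -1.19 ± 0.26 (adjusted p = 1.92e-06 and 3.75e-05). CDH19 was lower in moderate diabetic segments, at -1.16 ± 0.41 (adjusted p = 0.0143), and stood at -0.91 ± 0.45 in severe ones (adjusted p = 0.106). SOX10 gave -0.57 ± 0.53 and -0.92 ± 0.58 (adjusted p = 0.406 and 0.226), and UCHL1 gave -0.53 ± 0.30 and -0.30 ± 0.32 (adjusted p = 0.141 and 0.521). These comparisons share the mild libraries with those above, so they are given as values only.

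Ordering each gene's 5 means shows how few neighbouring steps were resolved. For S100B and NCAM1 the order was mild, moderate and severe without diabetes, then severe and moderate with diabetes, and the one neighbouring pair that differed was severe with against severe without diabetes. For SOX10 the order was mild, moderate diabetic, moderate non-diabetic, severe diabetic and severe non-diabetic, and no neighbouring pair differed. CDH19 ran from mild through moderate non-diabetic, severe diabetic and moderate diabetic to severe non-diabetic, again with no neighbouring pair that differed. UCHL1 ran from moderate non-diabetic through severe non-diabetic, mild and severe diabetic to moderate diabetic, and no neighbouring pair passed.

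The genes whose 5 means most resembled those of S100B were not Schwann cell genes. Likeness was the Euclidean distance over 4 log2 ratios of group mean to mild mean, among 10593 named genes with a mean of at least 20. The nearest was AQP9, a channel for water and glycerol, at a distance of 0.0521, with means of 38.3 and 44.7 in moderate and severe diabetic segments and 161, 113 and 91.3 in mild, moderate and severe segments without diabetes. LEP, the adipocyte hormone leptin, stood at 0.186, with means of 14.2 and 16.5 with diabetes and 56.3, 35.5 and 32.2 without it. ADHFE1, a mitochondrial alcohol dehydrogenase, stood at 0.271 and FAM213B at 0.283. Of the other nerve genes, NCAM1 ranked 523 by likeness to S100B, CDH19 ranked 638, SOX10 ranked 1766 and UCHL1 ranked 5187.

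The genes nearest to SOX10 lay farther from it. FAM160A1 stood at 0.529, followed by ADH1C, an alcohol dehydrogenase, at 0.593, SLC44A5, a choline transporter-like gene, at 0.639, CFP, the complement factor properdin, at 0.663, and SIK1, a kinase of the salt-inducible family, at 0.687. Of the nerve genes CDH19 was closest to SOX10, at rank 56 and a distance of 1.06. S100B ranked 3113 by likeness to SOX10.

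**Figure D3:**
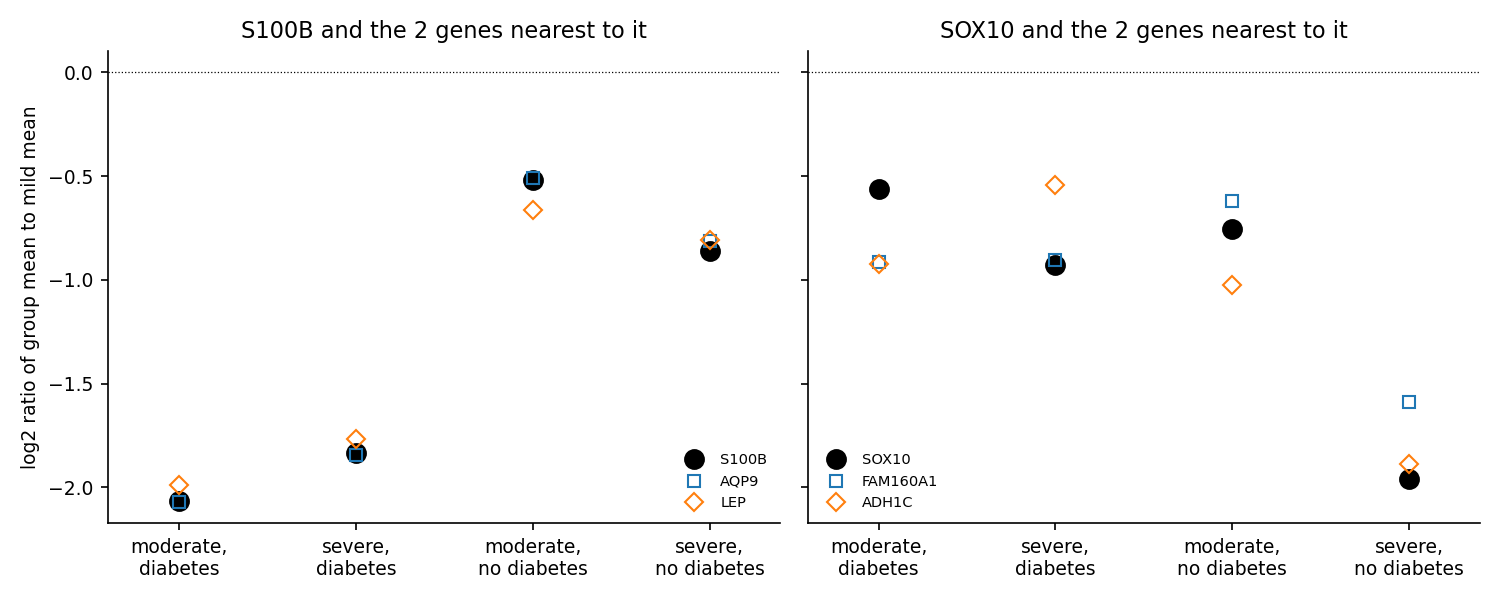
Log2 ratio of each group mean to the mild mean (y axis) in 4 groups, for S100B (left) and SOX10 (right) and the 2 genes nearest to each by Euclidean distance. AQP9 lies on S100B in all 4 groups (distance 0.0521), while the genes nearest to SOX10 lie farther from it (distances of 0.529 and 0.593).

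Of the tissues that border the artery, heart muscle had markers that were lower with diabetes at both grades. Among adipocyte markers ADIPOQ alone passed, lower in moderate segments, where PLIN1, PLIN4 and LEP had lower means without passing. The 9 matched heart muscle markers summed to 2474 and 3712 in moderate and severe diabetic segments, and to 115544, 33592 and 28826 in mild, moderate and severe segments without diabetes. Of the 7 of them with a mean of at least 10 and a p, 7 were lower with diabetes in moderate and 4 in severe segments, with medians of -6.17 and -3.93. The 6 matched adipocyte markers summed to 1894 and 2589 with diabetes, and to 7674, 4176 and 4153 without it. Of these, 1 was lower with diabetes in moderate segments and 0 in severe ones by DESeq2 (0 with an unadjusted p under 0.05 in severe ones), with medians of -1.18 and -0.78. In moderate segments PLIN1, PLIN4 and LEP also had an unadjusted DESeq2 p under 0.05. They had 383 against 999.7, 830 against 1710 and 14.2 against 35.5. CIDEC had 252 against 291, and PCK1 pointed the other way, at 80.5 against 60.2. For severe against mild segments without diabetes 0 of either list passed by DESeq2 and 2 heart muscle and 1 adipocyte marker had an unadjusted p under 0.05, with medians of -2.21 for heart muscle and -0.83 for adipocytes. No heart muscle or adipocyte marker with a row was at 0 in every group, and NPPA was listed at 0 in moderate diabetic segments. The part of either tissue in the S100B, NCAM1 and UCHL1 differences was not tested.

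Markers of the adventitial fibroblast, the resident cell of the coat that holds the nerves, summed to 19117 and 27237 in moderate and severe diabetic segments, and to 49074, 25878 and 22474 in mild, moderate and severe segments without diabetes. For severe against mild segments 6 of 8 were lower, with a median of -1.32. For diabetes in severe segments 1 of 8 was higher and 0 were lower, with a median of 0.15. In moderate segments the sum was lower with diabetes, at 19117 against 25878, and calls for single markers there are not reported here. Their part in the fall of SOX10, CDH19 and S100B with grade was not tested. The 4 matched endothelial markers summed to 3946 and 3772 with diabetes and to 5550, 3801 and 4001 without it. The 6 matched smooth muscle markers summed to 85155 and 89281 with diabetes and to 120708, 100543 and 85614 without it, and ACTA2 and TAGLN made up most of these sums. MYH11 alone of them passed for diabetes, and it was lower at both grades. It had 7067 against 11668 in moderate and 5203 against 9106 in severe segments (DESeq2 adjusted p = 0.0179 and 0.0160). ACTA2 pointed the other way at both grades and TAGLN in severe segments, and neither passed. For severe against mild segments without diabetes CNN1 and DES were lower. They stood at 54.7% and 37.9% of the mild mean (DESeq2 adjusted p = 0.00526 and 0.000622). The other smooth muscle markers were lower without passing. PECAM1 of the endothelium was lower too, at 66.8% (DESeq2 adjusted p = 0.000120). VWF and KDR did not pass, nor did TIE1, which pointed the other way at 15.4 against 8.28. The part of smooth muscle and of endothelium was not tested.

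Of other cell types that make S100B, SOX10 or NCAM1, melanocytes and chondrocytes had few markers that passed for diabetes. Some T and NK cell markers were higher with diabetes in moderate segments, as were most markers of macrophages. The 6 melanocyte markers summed to 465 and 519 in diabetic segments and to 295, 418 and 402 in the others, and the 4 chondrocyte markers to 653 and 621 and to 747, 800 and 1001. Of 4 melanocyte markers with a mean of at least 10 and a p, 1 was higher with diabetes at each grade and 0 were lower. In moderate segments it was DCT, a pigment enzyme, with 28.7 against 13.6, and in severe ones MLANA, a melanosome protein, with 235 against 78.3. TYR, the pigment enzyme tyrosinase, had 137 against 211 and 113 against 205 and did not pass at either grade. Without diabetes MLANA was also higher than in mild segments. It had 94.9 in moderate and 78.3 in severe against 10.2 in mild segments (DESeq2 adjusted p = 7.08e-09 and 1.70e-08). Of the chondrocyte markers COMP was higher in severe than in mild segments, at 72.15 against 18.8 (DESeq2 adjusted p = 0.0421). SOX9 pointed the other way, at 12.05 against 34.3, and did not pass. No chondrocyte marker passed for diabetes at either grade by DESeq2 (0 with an unadjusted p under 0.05), with medians of -0.09 and -0.69, and the part of these cells was not tested. T and NK cell markers, 5 of them matched, summed to 623 in moderate and 623 in severe diabetic segments and to 130, 292 and 405 in the others. NKG7, a protein of cytotoxic granules, made up most of these sums, at 491 and 497 with diabetes and 74.9, 228 and 320.3 without it. It and CD2, a T cell adhesion receptor, were higher with diabetes in moderate segments, and in severe ones 0 of 4 passed by DESeq2 (2 with an unadjusted p under 0.05). PRF1, the pore protein perforin, had 22.5 against 32.5 in severe segments and did not pass. Macrophage markers, 7 matched, summed to 13894 and 15166 with diabetes and to 5159, 7205 and 8834 without it, and 5 of 7 were higher with diabetes in moderate and 1 of 7 in severe segments.

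Most myelin genes had lower means with diabetes, and few passed. Of 19 listed, 18 had a row and 13 had a mean of at least 10 with a p. In moderate segments with against without diabetes 11 of these 13 had a fold change below 0, the median was -1.24, and by the adjusted p 3 of the list were lower and 2 higher. PRX, which stabilises the mature sheath, had 96.9 against 230, with -1.24 ± 0.32 in the authors' deposited table (DESeq2 adjusted p = 0.00178). DHH, a signal from Schwann cells to the nerve sheath, had 3.25 against 11.7, and MAL, a lipid raft protein of myelin, had 37.4 against 103.

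The 2 genes that rose were EGR2 and MBP. EGR2, the master regulator of myelination that immune cells induce as well, had 224 against 93.8 in moderate and 171 against 87.8 in severe segments. MBP, a myelin protein whose locus also gives other transcripts in immune cells, had 1102 against 712 in moderate segments. MBP was likewise higher in severe than in mild segments without diabetes, at 727 against 358 and 1.02 ± 0.24 in the authors' deposited table (DESeq2 adjusted p = 0.000422), and it was the one myelin gene that passed there while the list's median was -0.65. In severe segments EGR2 alone of the list passed for diabetes, and the median was -0.75. Modelled variation between libraries had a median of 51.1% of the mean over the 13 myelin genes.

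Genes of non-myelinating or repair Schwann cells split with grade. Of 14 listed, 13 had a row and 8 had a mean of at least 10 with a p. For severe against mild segments without diabetes 2 were higher and 2 lower, with a median of -0.75. L1CAM, an adhesion molecule of axons and non-myelinating Schwann cells, had 505 against 173, at 1.54 ± 0.25 in the authors' deposited table (DESeq2 adjusted p = 3.88e-08), and FABP7, a fatty acid carrier of immature glia, had 19.0 against 2.09. Among those lower was PTPRZ1, a receptor phosphatase, at 34.6 against 58.4.

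With diabetes L1CAM went the other way at both grades. It had 197 against 372 in moderate segments, at -0.91 ± 0.24 in the authors' deposited table (DESeq2 adjusted p = 0.00202), and 171 against 505 in severe ones, at -1.57 ± 0.25 (DESeq2 adjusted p = 1.31e-07). In moderate segments LGI4, a factor Schwann cells need for myelination, and PTPRZ1 were lower too, the median of the list was -0.71 and 8 of 8 were below 0. In severe segments L1CAM alone passed, and the median was -0.04.

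**Figure D4:**
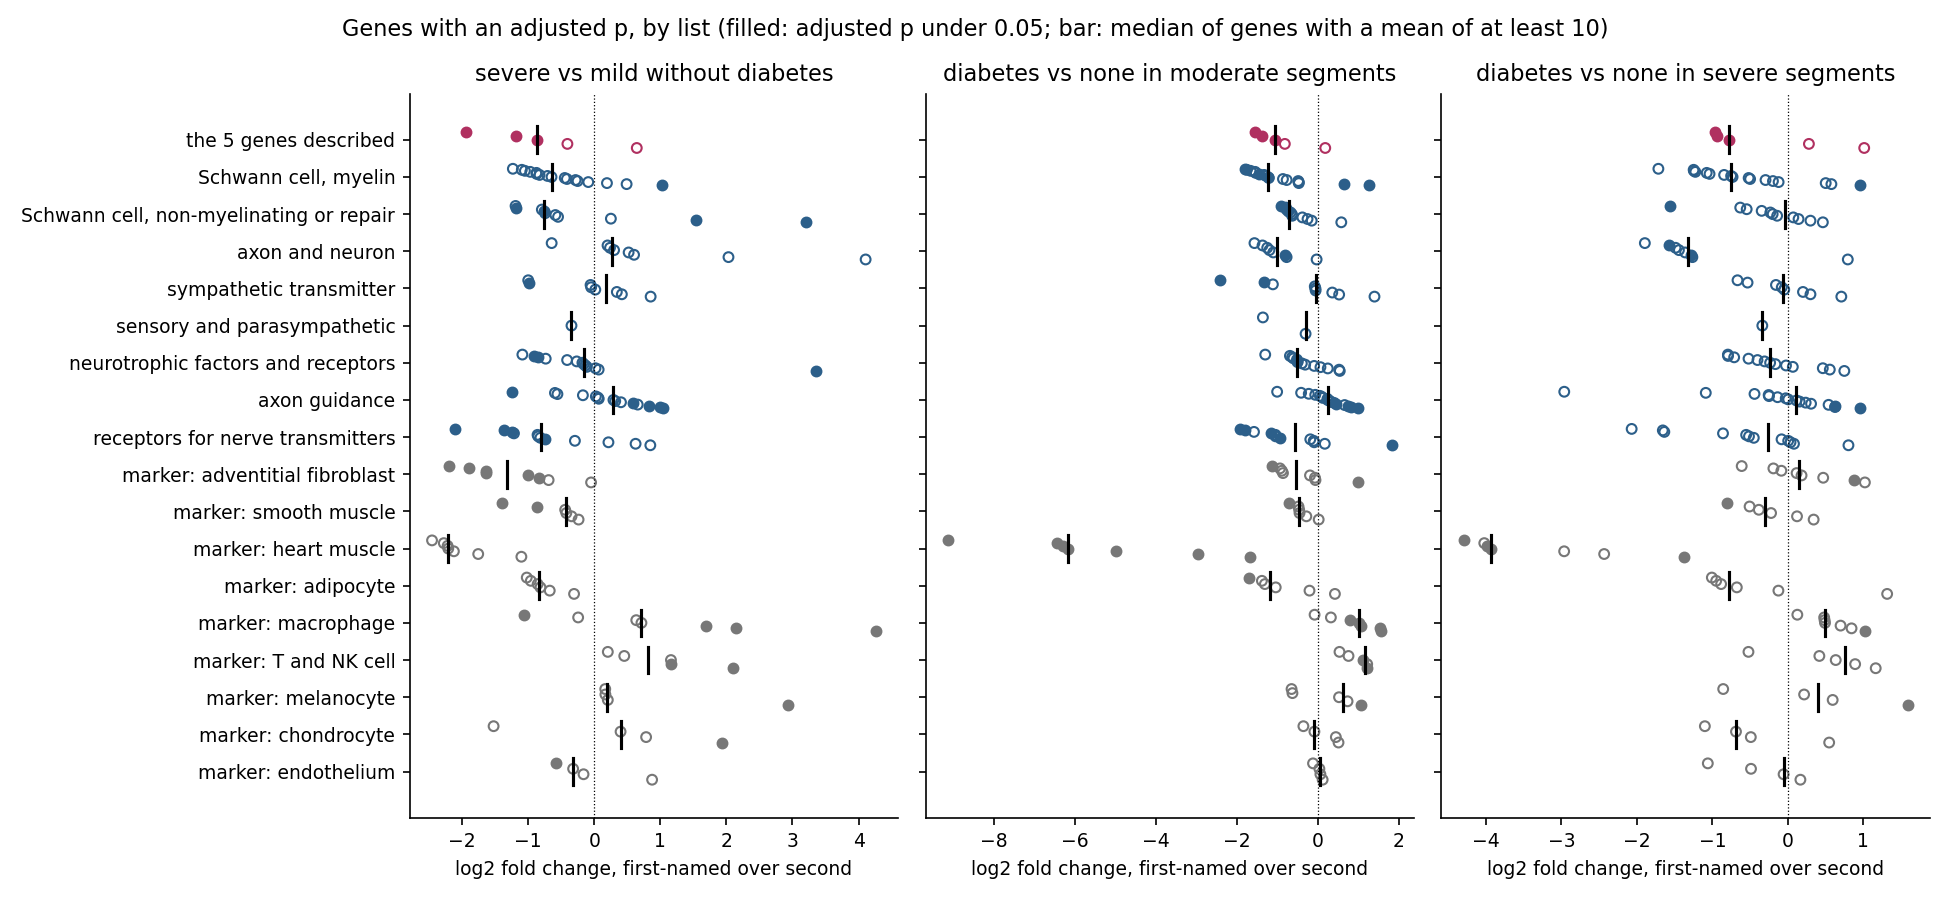
Log2 fold change (x axis) of each gene with an adjusted p, by list, in 3 comparisons; filled points have an adjusted p under 0.05 and bars are medians of the genes with a mean of at least 10. For diabetes in moderate segments the myelin list has its median at -1.24 and the heart muscle list at -6.17, and for severe against mild segments the adventitial fibroblast list has its median at -1.32.

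Axon and neuron genes varied strongly between libraries, with a median modelled variation of 62.2% of the mean. Of 16 listed, 13 had a row and 6 had a mean of at least 10 with a p. No gene of the list passed by grade without diabetes by DESeq2. STMN2, a protein of growing axons, was the one with an unadjusted p under 0.05, at 86.1 in moderate against 18.5 in mild segments and 2.22 ± 1.13 in the authors' deposited table (p = 0.0485, DESeq2 adjusted p = 0.308). With diabetes MAPT, the microtubule protein tau, was lower at both grades, at 88.0 against 155 in moderate and 88.1 against 214 in severe segments. In severe segments the authors' deposited table puts MAPT at -1.28 ± 0.27 (DESeq2 adjusted p = 0.000203). SYP, a synaptic vesicle protein, passed narrowly there, at 7.35 against 22.1 (DESeq2 adjusted p = 0.0498 in the authors' deposited table). The median over the 6 was -1.0 in moderate and -1.32 in severe segments with against without diabetes. The 13 genes with a row summed to 865 against 1228 in moderate and to 1006 against 970 in severe segments. In severe segments the sum was thus slightly higher with diabetes, so not every gene of the list was lower there.

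Several nerve genes had a fold change and no p in any of the 6 tables, as had 35 of all names. DESeq2 leaves the p blank where the count of 1 library is an outlier. Among them were the neurofilaments NEFL and NEFH, the vesicle fusion protein SNAP25, the granule protein SCG2 and the sympathetic transmitter NPY, and these 5 had their highest mean in moderate segments without diabetes. NEFL, the light neurofilament chain, averaged 53.2 and 15.1 in moderate and severe diabetic segments and 14.1, 173 and 72.3 in mild, moderate and severe segments without diabetes. SNAP25 averaged 9.26 and 4.35 with diabetes and 1.18, 26.5 and 12.9 without it. Their modelled variation between libraries was 220% of the mean for NEFL and 357% for SNAP25.

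NEFM, the middle neurofilament chain, has a p and took the same shape, with 9.01 and 4.35 in diabetic segments and 0.703, 23.2 and 12.2 in the others. It did not pass for moderate against mild segments, at 5.03 ± 3.62 in the authors' deposited table (DESeq2 adjusted p = 0.561). Of the 35 names without a p, 18 were highest in moderate segments without diabetes. Among them were the atrial heart genes NPPA, which had 0 and 33.4 with diabetes and 149, 1757 and 63.6 without it, and MYL7, which had 1.39 and 25.5 with diabetes and 88.7, 830 and 49.7 without it. Whether the same library carries the neuronal and the atrial outliers was not tested.

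**Figure D5:**
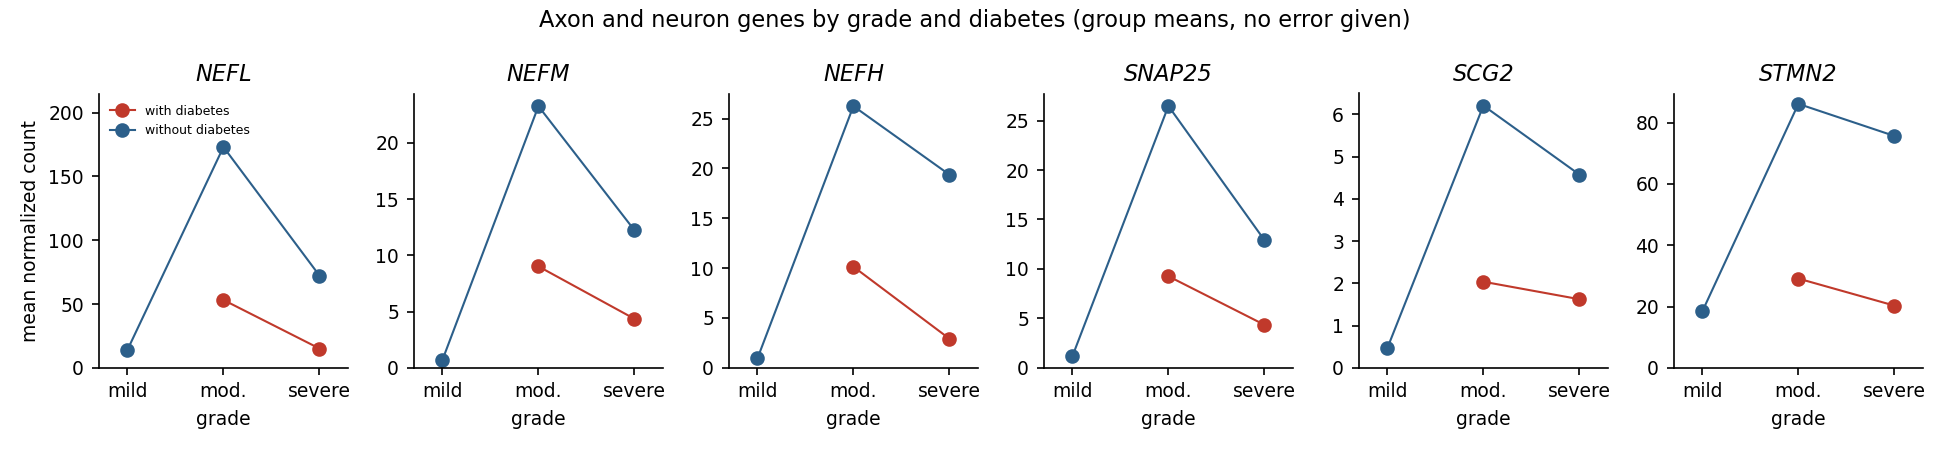
Authors' mean normalized count (y axis, from 0) of 6 axon and neuron genes against grade, with diabetes in red and without it in blue. No error is drawn, and modelled variation between libraries was large for these genes. Each of the 6 peaks in moderate segments without diabetes, at 173 for NEFL against 14.1 in mild segments. They are part of the 13 listed genes with a row, and MAPT, not drawn, was higher in severe than in moderate segments without diabetes. The 13 summed to 865 and 1006 in moderate and severe diabetic segments. In mild, moderate and severe segments without diabetes they summed to 695, 1228 and 970.

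Sympathetic and sensory transmitter genes gave little signal. All 14 sympathetic genes had a row, and HAND2, a transcription factor of sympathetic neurons and of the heart, was lower in severe than in mild segments without diabetes, at 263 against 519 (DESeq2 adjusted p = 0.00528 in the authors' deposited table). HAND2 was also lower with diabetes in moderate segments, at 128 against 321, as was CHGA, a granule protein, at 3.8 against 20.2. In severe segments 0 of the list passed for diabetes by DESeq2, and 1 had an unadjusted p under 0.05, MAOA at 2762 against 2246. Of 11 sensory and parasympathetic genes 8 had a row, and SCN9A, a sodium channel of sensory neurons, was the one with a mean of at least 10. SCN9A averaged 43.0 and 30.1 in moderate and severe diabetic segments and 48.1, 52.6 and 38.0 in mild, moderate and severe segments without diabetes, and no comparison passed by DESeq2 (0 with an unadjusted p under 0.05).

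Among the neurotrophic factors, which keep neurons alive and guide their growth, BDNF stood out by grade. It averaged 74.5 in moderate and 74.5 in severe diabetic segments, and 12.1, 71.4 and 122 in mild, moderate and severe segments without diabetes. Moderate against mild segments gave 2.57 ± 0.57 and severe against mild segments 3.35 ± 0.54 on the log2 scale in the authors' deposited table (DESeq2 adjusted p = 0.000416 and 3.87e-08). Its receptor NTRK2 was lower, at 708 in moderate and 701 in severe against 1320 in mild segments (DESeq2 adjusted p = 0.0346 and 0.00905 in the authors' deposited table). GFRA2, a receptor of neurturin, was at 29.3 in severe against 52.5 in mild segments. For diabetes ERBB2, which with ERBB3 receives neuregulin in Schwann cells, was lower in moderate segments, at 193 against 276, and 0 of the 17 genes passed in severe segments by DESeq2, nor did any have an unadjusted p under 0.05.

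Axon guidance genes, many of which endothelium and leukocytes use as well, were called higher more often than lower. Of 18 listed, 17 had a row. For diabetes in moderate segments 4 of the list were higher and 0 lower, beside 8.20% of all genes that were higher. In severe segments 2 were higher and 0 lower, beside 5.75% of all genes that were higher. NRP2, a semaphorin and VEGF receptor, had 1567 in severe against 781 in mild segments without diabetes, and with diabetes 2578 against 1311 in moderate and 2409 against 1567 in severe segments. The authors' deposited table gives NRP2 0.98 ± 0.12 for diabetes in moderate segments (DESeq2 adjusted p = 1.67e-13). SEMA4D, a semaphorin of lymphocytes, was higher with diabetes at both grades, at 292 against 167 and at 341 against 176. For severe against mild segments 4 of the list were higher, with UNC5B and ROBO1 among them, and 1 was lower. Of all genes 7.19% were higher and 4.80% lower there. The lower one was ROBO2, a receptor of SLIT ligands, at 66.6 against 157.

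Receptors through which nerve transmitters act on the artery that changed with grade were lower. For severe against mild segments without diabetes 0 of the list were higher and 4 lower, with a median of -0.80. RAMP1, a subunit of the receptor for the sensory peptide CGRP, had 419 against 991, and its partner CALCRL had 2404 against 4022. CHRM3, the muscarinic receptor M3, had 6.64 against 28.1, and ADRB1, the main beta adrenoceptor of heart muscle, had 14.6 against 38.4. With diabetes in moderate segments 4 were lower and 1 higher. NPY1R, a receptor of neuropeptide Y, had 133 against 300, and RAMP1 had 347 against 670. ADRA2A, an alpha adrenoceptor, was the one that rose, at 57.1 against 16.0 (DESeq2 adjusted p = 3.54e-05 in the authors' deposited table). In severe segments 0 passed for diabetes by DESeq2, and 6 had an unadjusted p under 0.05, with the smallest for ADRA2B at 1.92 against 5.99.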

How the data were processed

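The 23 libraries were grouped by their titles. The authors deposited 6 tables, 1 per comparison, with no value per library. The signal they hold is the authors' mean normalized count of each group (normMean, per the file headers). The authors deposited a log2 fold change with its SE, a p-value and an adjusted p-value from DESeq2, on build Sscrofa11.1, per the submitters' processing notes; no version is stated there. The test score that the authors deposited in 3 tables has its sign turned against the fold change and set no direction here. The aligner and counter were not given in the sources used here.

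Of 35252 lines, 24 were dropped because a spreadsheet date stood where the name should be, and cells with a spreadsheet error were read as missing. The members and lists were chosen with earlier results of these data known. The design allowed for counts per library or, failing these, the authors' test results, and the second case applied. Group variances were solved from the deposited SEs, and imply 4, 3.999, 4.999, 6.002 and 4.003 libraries for mild, moderate and severe without diabetes and moderate and severe with it. The other comparisons were computed here from them with two-sided Wald tests, Benjamini-Hochberg adjusted over the 17493 genes averaging 10 or more. A Wald p computed for the deposited comparisons was within 4.4e-15 of the authors' own. The step was tested on simulated data.

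The 17 lists hold 185 genes, of which 152 matched by name, 11 by gene identifier and 5 by a numbered copy, and 17 have no row. Medians cover genes with a mean of at least 10 and a p, and calls cover all genes with an adjusted p. The text draws named genes from those with the smallest p in each list, at most 4 that passed in a comparison or 2 where none passed. Not all of these are printed, and some genes are not reported here. Genes with no p, NEFM, and MBP for diabetes were picked with their values in view. Library depth was inferred from low means, since 1 read in 1 library makes a fixed step, and totals are approximate. Python 3.11.15, numpy 2.4.6, pandas 2.3.3, scipy 1.17.1 and matplotlib 3.10.9 were used. Alternatives were other filters on low means, centring, and the ratio of means with a pseudocount of 1.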

Additional observations from a re-analysis of the deposited data

How the results depend on the processing

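No paired analysis was possible because the tables hold no value per library. For the same reason neither leaving out a replicate nor TMM in place of DESeq2's size factors was run, and the weight of single libraries, severe non-diabetic replicate 5 included, was not tested. The number of the 5 genes called was 3 in severe against mild segments without diabetes and 2 under the alternatives without CDH19. Over all comparisons it stayed within 1.5 times its value under 33 of 33 alternatives. That bound is too wide to register a change from 3 to 2. The alternatives were filters on low means, adjustment over every gene with a p and centring. Of 201 alternative values of single folds, 198 kept direction and side of the threshold. NCAM1 for severe against moderate segments with diabetes, which did not pass, was -0.0096 with centring in place of 0.028. The other 2 were CDH19 for severe against mild segments without diabetes, whose adjusted p ran from 0.0369 to 0.0678 over its alternatives. Centring moved folds by at most 0.07 on the log2 scale.

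Of 48 list medians computed with no filter on low means, 43 moved by less than their spread. Without the filter the axon and neuron median for moderate against mild segments was 1.21 in place of 0.32, since it then takes in NEFM and other genes with low means. The sympathetic median for diabetes in moderate segments was -0.44 in place of -0.06, and that of the receptors was -0.95 in place of -0.57. The sensory and parasympathetic median was -1.10 for severe against moderate segments with diabetes and -1.07 for diabetes in severe segments, in place of -0.51 and -0.34, which rest on SCN9A alone. Depth limits SOX10, with means of 8.23 to 32.0, and DBH, whose means lie near the level of 3 counts in a group.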
